A study of Mus musculus with 6 samples.

Results

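The 9 genes described here are imprinted growth regulators, a set of genes that are expressed from a single parental allele and act on the growth of embryonic and adult tissues. They are the maternally expressed non-coding RNAs H19 and Meg3, the paternally expressed genes Dlk1, Mest, Peg3, Ndn and Plagl1, and the maternally expressed genes Cdkn1c and Grb10. They were chosen by name, with earlier results of these data known, and all 9 were found among the 55385 mouse gene rows of the count table. RNA was sequenced in bulk from PDVC57, an established mouse squamous carcinoma line of keratinocyte origin, in 3 libraries labelled Sox2 KO (knockout, the gene disrupted) and 3 labelled Sox2 overexpression (additional Sox2 supplied). Both groups share the line, the only one named in the labels. No library of unmodified PDVC57 cells was included. Falls and rises below are thus those of overexpression relative to knockout, and which group moved cannot be told. The study's own description speaks of squamous carcinoma cells low or high in Sox2 taken from tumours grown as grafts, and asks which mechanisms Sox2 activates in tumour stem cells to act on neutrophils. No age, time point, clone or further agent is given in the labels, and no statement says that the replicates came from separate tumours, so p-values measure the spread between these samples, which may be technical.

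In genomic imprinting, DNA methylation laid down in the egg or the sperm marks a control region, and the genes around it are then read from the maternal or the paternal copy alone. Imprinted genes are abundant in the embryo, in placenta and in mesenchymal tissues, and many of them are switched down after birth. Counts per gene do not separate the 2 alleles, so the values below are total transcript and say nothing of loss or gain of imprinting.

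The libraries held 31247976 to 38543221 counts over mouse genes. Sox2 had 49, 34 and 25 counts in the knockout libraries (replicates 1, 2, 3) and 2566, 3790 and 4095 counts in the overexpression libraries (replicates 1, 2, 3), so the libraries fell on the sides their labels give. All 32 genes of an epithelial list passed the count filter, and their summed level was 7756 to 12093 CPM (counts per 1000000 counts, after scaling of the libraries) with knockout and 18685 to 24481 CPM with overexpression. Of the 32, 23 were higher past the threshold and 0 were lower. Of the marker lists, that of fibroblasts had the lowest median log2 fold change, -7.55. The summed level of 17 fibroblast markers was 68543 to 96776 CPM with knockout and 309 to 513 CPM with overexpression, all 17 were lower past the threshold, and none was at 0 in every library of a group. Of the endothelial markers 7 of 8 tested were lower (summed level 63.5 to 166 CPM with knockout, 15.9 to 21.5 CPM with overexpression), and of the white blood cell markers 5 of 7 (28.2 to 159 CPM and 14.0 to 28.6 CPM, which overlap). Knockout replicate 3 was the highest for white blood cell markers, and without it the knockout mean of that sum fell from 80.9 to 41.6 CPM. The endothelial sum was also highest in replicate 3 (166 CPM). So were 3 of the 9 imprinted genes below (Dlk1, Meg3 and Grb10), while 5 were highest in knockout replicate 2 and 1 in knockout replicate 1. Of other imprinted genes named below, Peg10, Sgce, Rian, Mirg, Rtl1 and Dio3 were among those highest in replicate 3. Of the mural cell markers 6 of 8 tested were lower and 1 was higher, of the skeletal muscle markers 2 of 2 were lower, of the adipocyte markers 2 of 4 were lower and 1 was higher, and of the Schwann cell markers 1 of 5 was higher. Beside these counts, 18.0% of all tested genes were lower and 13.6% higher past the threshold. Most fibroblast, endothelial and white blood cell markers were thus lower with overexpression, as were the 9 imprinted genes below, and their part in the results was not tested. In bulk RNA, fewer cells of a type and less RNA per cell cannot be told apart.

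All 9 imprinted growth regulators were lower with Sox2 overexpression than with Sox2 knockout. Their summed level was 650.0, 1160 and 1173 CPM in the knockout libraries (replicates 1, 2, 3), and 21.6, 14.3 and 22.9 CPM in the overexpression libraries (replicates 1, 2, 3). Each of the 9 passed the threshold in the test of edgeR described under the processing (adjusted p under 0.05 over 18504 tested genes), where 18.0% of all tested genes were lower past the threshold and 13.6% were higher. For each of the 9, every overexpression library lay below every knockout library, which held for 26.5% of tested genes. The fall was at least 8-fold for 8 of the 9, all but Plagl1, and 9.04% of tested genes fell as far. The median log2 fold change of the 9 was -6.50, and that of all tested genes was -0.0162. These counts are a description of genes chosen with earlier results of these data known, so the shares of all tested genes are no test of them. Only H19, Meg3, Mest and Plagl1 reached the count filter's level in all overexpression libraries, and the other 5 passed the filter through the knockout libraries, so a test of them could hardly have gone the other way.

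**Figure D1:**
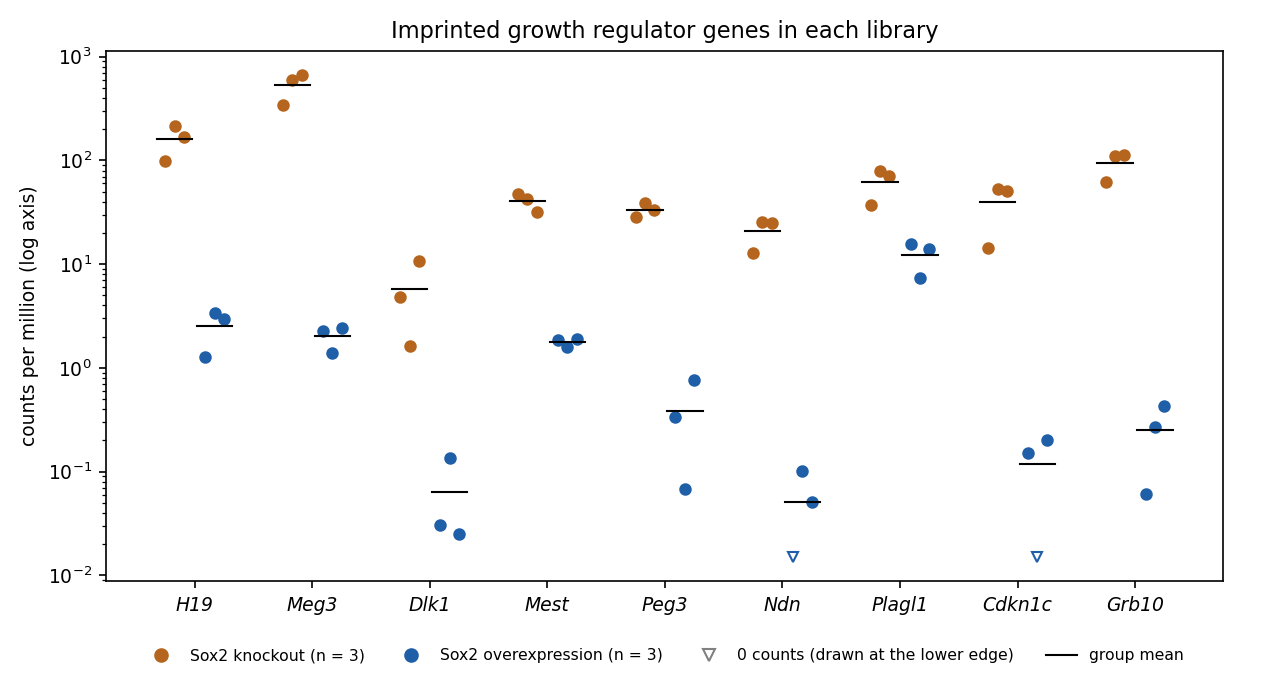
Level of each of the 9 imprinted genes in each library, in CPM on a log axis, with knockout libraries in brown and overexpression libraries in blue (n = 3 each) and a line at the group mean. The groups do not overlap for any of the 9 genes, Plagl1 keeps the highest level with overexpression (7.41 to 15.6 CPM), and the libraries without a count of Ndn or Cdkn1c are drawn as open triangles.

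**Figure D2:**
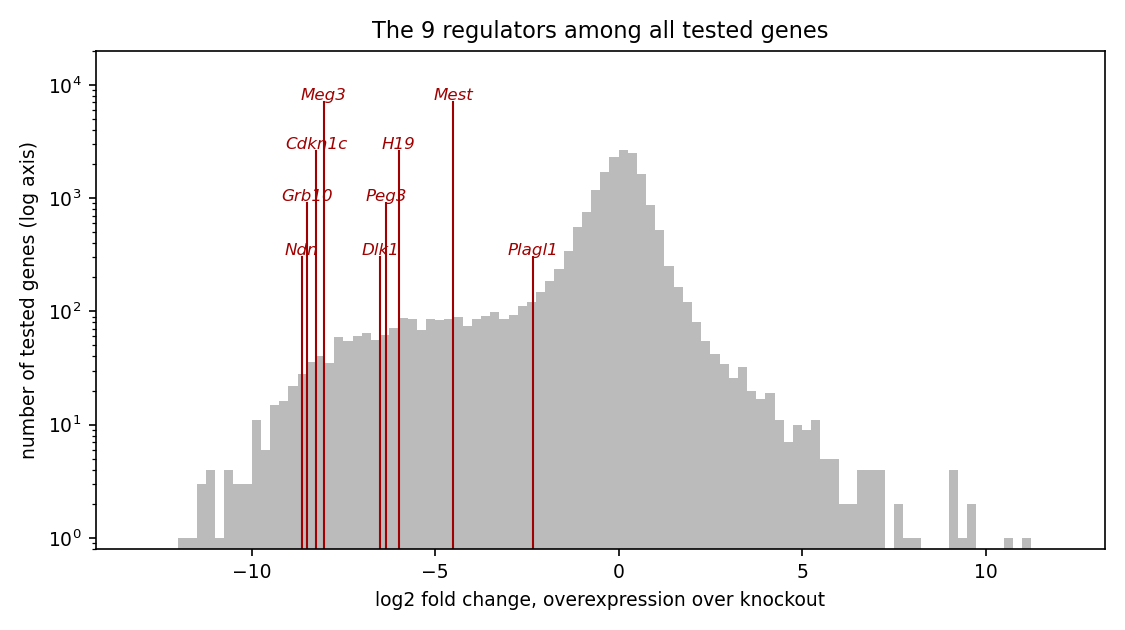
Distribution of the log2 fold change (overexpression over knockout) of the 18504 tested genes, with the number of genes on a log axis and the 9 imprinted genes marked by lines whose height carries no value. The 9 lie between -8.64 (Ndn) and -2.33 (Plagl1), in the lower tail of a distribution with its median at -0.0162.

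The start regions of these genes are shown because most of the 9 share a control by methylation of CpG sites, and ZFP57, a zinc finger protein that keeps imprints, recognises the letters TGCCGC in methylated DNA. RefSeq start regions on GRCm38.p6 were found for 7 of the 9 genes, Dlk1, Grb10, Meg3, Mest, Ndn, Peg3 and Plagl1. In the 250 bases before the start, taking for each gene the start with most CpG sites, TGCCGC or its reverse complement GCGGCA was found in 3 of the 7 genes. Of all 32851 start regions of that length, 8.68% held it. Those were taken without a choice by CpG sites, so the shares are not like for like. The 3 are printed 5′ to 3′ with the matches in capitals: Mest (chr6:30737800-30738049, plus strand), Plagl1 (chr10:13090582-13090831, plus strand) and Meg3 (chr12:109540746-109540995, plus strand).
Mest: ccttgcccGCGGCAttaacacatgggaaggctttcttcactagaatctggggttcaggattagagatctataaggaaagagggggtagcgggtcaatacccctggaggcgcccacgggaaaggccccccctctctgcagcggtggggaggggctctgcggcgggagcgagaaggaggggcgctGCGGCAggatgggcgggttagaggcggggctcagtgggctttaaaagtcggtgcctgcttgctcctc
Plagl1: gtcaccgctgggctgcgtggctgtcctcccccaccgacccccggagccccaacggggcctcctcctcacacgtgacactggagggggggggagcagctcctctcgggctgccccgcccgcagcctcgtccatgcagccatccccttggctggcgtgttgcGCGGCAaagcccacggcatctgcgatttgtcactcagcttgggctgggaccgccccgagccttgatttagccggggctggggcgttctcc
Meg3: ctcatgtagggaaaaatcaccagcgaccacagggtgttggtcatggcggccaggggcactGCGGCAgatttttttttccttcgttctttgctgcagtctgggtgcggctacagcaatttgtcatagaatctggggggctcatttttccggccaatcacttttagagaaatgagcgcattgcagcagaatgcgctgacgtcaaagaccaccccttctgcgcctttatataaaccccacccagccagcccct
The Mest window held 2 matches and 14 CpG sites, the Plagl1 window 1 match and 19 CpG sites, and the Meg3 window 1 match and 10 CpG sites. The median of all windows, taken without a choice by CpG sites, was 6 CpG sites. The other 4 windows had no match, and held 40 (Grb10), 8 (Dlk1), 8 (Peg3) and 5 (Ndn) CpG sites. The 6 letters CATTGT, a core that SOX proteins bind, and their reverse complement ACAATG were in none of the 7 windows. They were in 10.7% of all windows, again taken without that choice. A match describes letters only, and says nothing of binding in these cells.

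H19 and Meg3 are long non-coding RNAs. H19 (ENSMUSG00000000031, chromosome 7, 142575529 to 142578143, minus strand, GRCm38) restrains growth in the embryo and is read from the maternal copy opposite to Igf2. It had 3360, 6480 and 6204 counts in the knockout libraries (replicates 1, 2, 3) and 42, 99 and 116 counts in the overexpression libraries (replicates 1, 2, 3). Its level was 161 ± 58.4 CPM (± SD, 3 libraries) with knockout and 2.52 ± 1.09 CPM (± SD, 3 libraries) with overexpression. On the log2 scale the difference was -5.99 ± 0.44 (SE), at an adjusted p of 1.7e-05 by edgeR. Every knockout library was high, and counts remained in every overexpression library. Meg3 (ENSMUSG00000021268, chromosome 12, 109541001 to 109571726, plus strand) is a maternally expressed RNA that has been described as a restraint on tumour growth. It had 11717, 17980 and 24381 counts in the knockout libraries and 74, 41 and 96 in the overexpression libraries, in the order of the replicates. That is 535 ± 170 CPM (± SD, 3 libraries) against 2.02 ± 0.559 CPM (± SD, 3 libraries), a log2 difference of -8.03 ± 0.38 (SE), at an adjusted p of 2.05e-06 by edgeR. It was the most abundant of the 9 by counts in the knockout libraries. Of its 18089 bp of exons, 1228 bp overlap those of Gm26906 on the other strand, and how the authors treated strand is not given in the sources used here.

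Small RNAs are cut from transcripts of 3 of the 9 genes, and their mature sequences are given here because the host transcripts fell. The precursor of miR-675 lies in an exon of H19, that of miR-770 in an exon of Meg3 and that of miR-335 in an intron of Mest. The sequences are those of RefSeq, 5′ to 3′, with the seed (bases 2 to 8) in capitals.
mmu-miR-335-3p: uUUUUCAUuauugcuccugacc
mmu-miR-335-5p: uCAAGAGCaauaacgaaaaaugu
mmu-miR-675-3p: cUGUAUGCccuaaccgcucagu
mmu-miR-675-5p: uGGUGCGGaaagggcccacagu
mmu-miR-770-3p: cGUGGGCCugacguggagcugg
mmu-miR-770-5p: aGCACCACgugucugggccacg
The 6 seeds all differ. The 3 precursor rows of the count table were at 0 in every library, which allows up to 3 counts in each. Long RNA libraries do not report mature miRNAs, so the values above are those of the host transcripts alone.

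Dlk1 and Mest, paternally expressed, mark embryonic mesenchyme and fat precursors. Dlk1 (ENSMUSG00000040856, chromosome 12, 109452823 to 109463336, plus strand) encodes a membrane protein with EGF-like repeats that holds back fat cell differentiation. Its counts were 164, 49 and 396 in the knockout libraries (replicates 1, 2, 3) and 1, 4 and 1 in the overexpression libraries (replicates 1, 2, 3). The level was 5.76 ± 4.69 CPM (± SD, 3 libraries) with knockout, and the spread was wide, with replicate 3 at 6.70 times replicate 2. Without knockout replicate 3 the knockout mean was 3.21 CPM. The overexpression level was 0.0637 ± 0.0621 CPM (± SD, 3 libraries), with a mean of 0.0279 CPM without replicate 2. On the log2 scale the difference was -6.50 ± 0.91 (SE), at an adjusted p of 0.000782 by edgeR. From summed counts, knockout was 103 times overexpression, with a 95% interval of 46.8 to 280.5 that covers counting error only. Mest (ENSMUSG00000051855, chromosome 6, 30723547 to 30748465, plus strand) encodes an enzyme of the alpha/beta hydrolase fold. It had 1633, 1295 and 1164 counts with knockout and 61, 47 and 76 with overexpression. The level went from 40.9 ± 8.16 to 1.79 ± 0.177 CPM (± SD over 3 libraries each), a log2 difference of -4.51 ± 0.23 (SE), at an adjusted p of 2.49e-06 by edgeR. The replicates of Mest were close to each other in both groups. Of its 3945 bp of exons, 912 bp overlap those of Copg2 on the other strand.

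Peg3, Ndn and Plagl1 encode paternally expressed nuclear proteins that have been linked to growth arrest and cell death. Peg3 (ENSMUSG00000002265, chromosome 7, 6703892 to 6730431, minus strand), a zinc finger protein, had 965, 1164 and 1203 counts with knockout and 11, 2 and 30 with overexpression. Its level went from 33.2 ± 5.11 to 0.387 ± 0.348 CPM (± SD over 3 libraries each), a log2 difference of -6.34 ± 0.53 (SE), at an adjusted p of 3.92e-05 by edgeR. Overexpression replicate 3 carried most of the remaining counts, and without it the overexpression mean was 0.202 CPM. Ndn (ENSMUSG00000033585, chromosome 7, 62346569 to 62350262, plus strand), or necdin, belongs to the MAGE family and restrains the cell cycle in postmitotic cells. It had 439, 764 and 914 counts with knockout and 0, 3 and 2 with overexpression. The knockout level was 21.1 ± 7.1 CPM (± SD, 3 libraries), and the overexpression counts were at or under the 3 counts that a count of 0 allows. The ratio of summed counts, knockout over overexpression, was 428 with a 95% interval of 183 to 1319 for counting error, and the edgeR adjusted p was 1.05e-05. The overexpression mean of 0.0507 CPM was 0.0253 CPM without replicate 2. Plagl1 (ENSMUSG00000019817, chromosome 10, 13060504 to 13131694, plus strand), also called ZAC1, is a zinc finger transcription factor that binds other imprinted loci and arrests the cell cycle. It had 1277, 2415 and 2566 counts with knockout and 511, 219 and 560 with overexpression. The level fell from 62.5 ± 22.3 to 12.4 ± 4.37 CPM (± SD over 3 libraries each), a log2 difference of -2.33 ± 0.35 (SE), at an adjusted p of 0.00121 by edgeR. Plagl1 thus had the smallest fall of the 9 in value. Whether it differed from the falls of the other 8 was not tested.

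Cdkn1c and Grb10, maternally expressed, act on the cell cycle and on growth factor receptors. Cdkn1c (ENSMUSG00000037664, chromosome 7, 143458339 to 143461050, minus strand) encodes p57Kip2, an inhibitor of cyclin-dependent kinases. It had 484, 1621 and 1843 counts in the knockout libraries (replicates 1, 2, 3) and 5, 0 and 8 in the overexpression libraries (replicates 1, 2, 3). The knockout level was 39.4 ± 21.9 CPM (± SD, 3 libraries), with replicate 1 well below the other libraries of its group, and the overexpression level 0.118 ± 0.105 CPM (± SD, 3 libraries). On the log2 scale the difference was -8.25 ± 0.76 (SE), at an adjusted p of 7.11e-05 by edgeR. From summed counts, knockout was 307 times overexpression, with a counting interval of 179 to 577. Of its 2039 bp of exons, 625 bp overlap those of Gm44732 on the other strand. The overexpression mean was 0.0763 CPM without replicate 3. Grb10 (ENSMUSG00000020176, chromosome 11, 11930508 to 12038683, minus strand) encodes an adaptor that binds the insulin and IGF1 receptors and dampens their signal. It had 2137, 3311 and 4108 counts with knockout and 2, 8 and 17 with overexpression. The level went from 94.9 ± 28 to 0.254 ± 0.185 CPM (± SD over 3 libraries each), a log2 difference of -8.48 ± 0.48 (SE), at an adjusted p of 4.55e-06 by edgeR. The overexpression mean was 0.166 CPM without replicate 3.

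Levels were compared between genes as CPM per kilobase of merged exons, which for genes with many isoforms counts exons that a cell may not use. In the knockout libraries the order was H19 (65.4 ± 23.8), Meg3 (29.6 ± 9.41), Cdkn1c (19.3 ± 10.8), Grb10 (10.4 ± 3.08), Mest (10.4 ± 2.07), Plagl1 (8.0 ± 2.85), Ndn (5.70 ± 1.92), Peg3 (2.50 ± 0.384) and Dlk1 (1.02 ± 0.829), each in CPM per kilobase with its SD (n = 3). Of the 8 pairs of neighbours in this order, 3 did not overlap between libraries, namely H19 over Meg3, Ndn over Peg3 and Peg3 over Dlk1. From Meg3 down to Ndn each gene overlapped the next. With overexpression the order began with Plagl1 (1.58 ± 0.559), H19 (1.02 ± 0.445), Mest (0.454 ± 0.0449) and Meg3 (0.112 ± 0.0309), and the other 5 lay at or below 0.058 CPM per kilobase. Here H19 over Mest and Mest over Meg3 were the neighbours that did not overlap. Plagl1, the sixth of 9 with knockout, was thus the first with overexpression, overlapping H19.

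Within the knockout group, replicate 1 was the lowest library for 7 of the 9 genes, with Dlk1 lowest in replicate 2 and Mest lowest in replicate 3. The highest knockout library was at most 2.18 times the lowest for 7 of the 9, and 3.78 times for Cdkn1c and 6.70 times for Dlk1. The summed level of Col1a1, Col1a2 and Col3a1, the main collagens of fibroblasts, was also lowest in knockout replicate 1, at 51337 CPM against 78092 and 73193 CPM in replicates 2 and 3. in the overexpression libraries (replicates 1, 2, 3) it was 239, 271 and 375 CPM.

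Each gene was therefore also given per 1000 counts of these 3 collagens in the same library. Meg3 had 6.69, 7.61 and 9.13 counts per 1000 collagen counts in the knockout libraries (replicates 1, 2, 3) and 9.43, 5.11 and 6.47 in the overexpression libraries (replicates 1, 2, 3). On this scale its groups overlapped, and the mean with overexpression was 0.897 times that with knockout. Groups also overlapped for Dlk1, Peg3, Cdkn1c and Ndn, whose means with overexpression were 2.64, 2.46, 0.712 and 0.555 times those with knockout. These ratios rest on few overexpression counts: without overexpression replicate 2 that of Dlk1 was 1.11 and that of Ndn 0.221, and without knockout replicate 3 that of Dlk1 was 4.04. Grb10 stayed below, with 1.22, 1.40 and 1.54 against 0.255, 0.997 and 1.15. H19, Mest and Plagl1 were above. H19 had 1.92, 2.74 and 2.32 with knockout and 5.35, 12.3 and 7.81 with overexpression. Mest had 0.932, 0.548 and 0.436 against 7.78, 5.86 and 5.12, a mean 9.79 times higher. Plagl1 had 0.729, 1.02 and 0.961 against 65.1, 27.3 and 37.7, a mean 48.0 times higher. Since collagen counts fell so far, 95.3% of the other tested genes were above without overlap on this scale and 0.654% below, with a median ratio of 226. The median ratio was 2.46 for the 9 imprinted genes and 1.29 for the 14 other fibroblast markers, whose ratios ran from 0.223 to 2.13. The ratios of Plagl1, Mest and H19 (3.65) lay above that range and those of Meg3, Cdkn1c, Grb10 (0.576) and Ndn inside it, also when any 1 library was left out of genes and markers alike. Dlk1 and Peg3 lay above it with all libraries, but inside it without knockout replicate 2 (Dlk1, 1.91), overexpression replicate 2 (Dlk1) or overexpression replicate 3 (Peg3, 1.66). These ratios are a description, and whether the collagen level accounts for any of the falls was not tested.

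**Figure D3:**
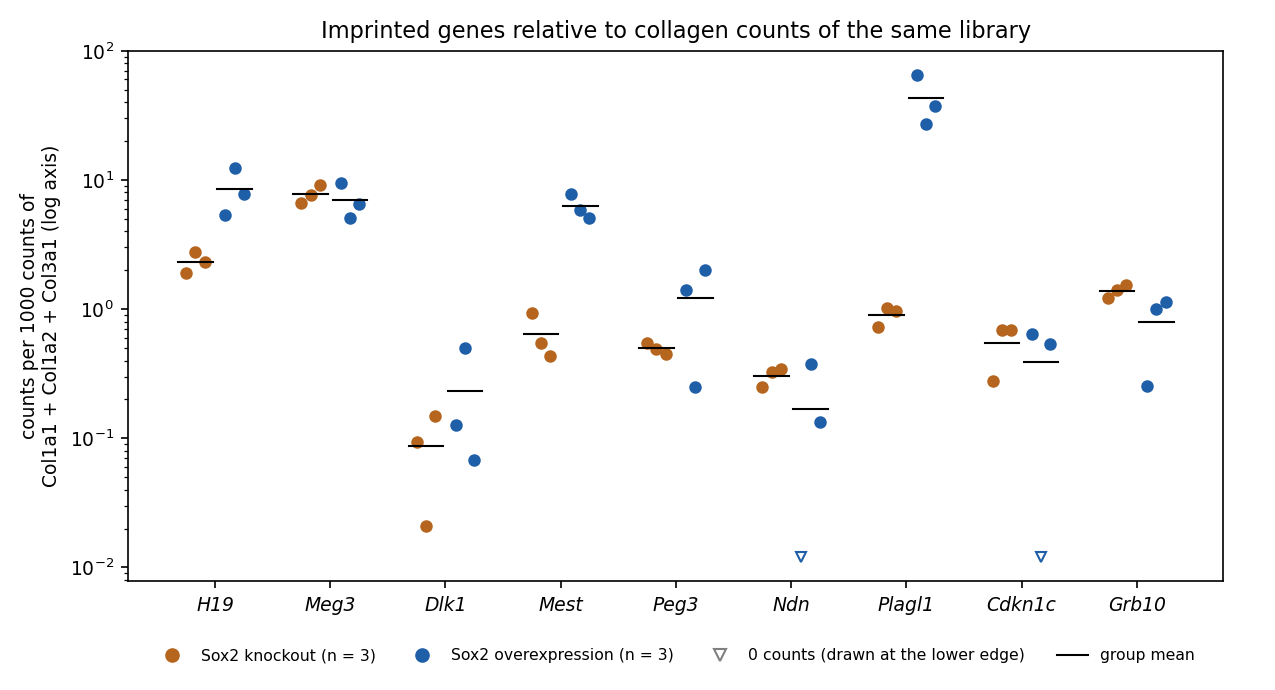
Counts of each imprinted gene per 1000 counts of Col1a1, Col1a2 and Col3a1 in the same library, on a log axis, with knockout libraries in brown, overexpression libraries in blue (n = 3 each) and a line at the group mean. Mest and Plagl1 lie above their knockout values in all 3 overexpression libraries, Meg3 overlaps between the groups, and open triangles are libraries without a count.

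The other imprinted genes did not move as one. Of 61 further imprinted genes, listed by name with earlier results of these data known, 59 were in the table and 43 passed the filter. Of these 43, 17 were lower past the threshold in the edgeR test (39.5%, beside 18.0% of all tested genes) and 8 were higher (18.6%, beside 13.6%), with a median log2 fold change of -0.22. Among the 17 that were lower, 13 had passed the filter without reaching its level in every overexpression library. With libraries scaled to the epithelial list in place of all genes, 36 were lower and 2 higher. That scaling moved the median of all tested genes to -1.17 and the calls over all genes from 3329 lower and 2519 higher to 14078 lower and 352 higher. On it the log2 fold change of the 9 regulators stayed below that median, the nearest being Plagl1 at -3.51. Of paternally expressed genes 9 of 19 tested were lower and 1 was higher, and of maternally expressed genes 8 of 24 were lower and 7 higher.

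In the Dlk1-Dio3 domain on chromosome 12 all 6 listed imprinted genes were tested and lower, from a log2 fold change of -5.47 (Rtl1) to -8.03 (Meg3), and the groups overlapped for none of the 6. Among all tested genes 18.0% were lower past the threshold, and 26.5% were below without overlap. Of the 6, Dlk1, Mirg, Rtl1 and Dio3 had passed the count filter through the knockout libraries. A pair of other tested transcripts between Meg3 and Mirg did not pass the threshold, Gm37899 (log2 fold change -1.16, edgeR adjusted p = 0.184) and B830012L14Rik (-0.75, adjusted p = 0.181). Rian, a non-coding RNA read on from Meg3 that carries small nucleolar RNAs, had 5094, 7596 and 9628 counts with knockout and 61, 34 and 77 with overexpression (log2 fold change -7.05, edgeR adjusted p = 2.05e-06). Mirg, which carries a cluster of miRNAs, had 179, 242 and 408 counts against 7, 3 and 1 (log2 fold change -6.16, and an overexpression mean of 0.113 CPM that was 0.0634 CPM without replicate 1). The paternally expressed Rtl1, a gene derived from a retrotransposon, had 86, 160 and 207 counts against 4, 2 and 4. Parts of its 6358 bp of exons overlap miRNA genes on the other strand, the longest being Mir433 (124 bp). The strand setting is not given, so its counts may include reads of the other strand. Dio3, a deiodinase that inactivates thyroid hormone, had 87, 64 and 127 counts against 2, 0 and 0. Maternally and paternally expressed genes were both among the 6 that were lower. The number of Meg3 counts for each Rian count was 2.30, 2.37 and 2.53 in the knockout libraries (replicates 1, 2, 3) and 1.21, 1.21 and 1.25 in the overexpression libraries (replicates 1, 2, 3). This ratio did not overlap between the groups and was not tested, and the exons of Meg3 and Rian both overlap those of other annotated RNAs.

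H19 and Igf2, which share enhancers and are read from opposite alleles, went in opposite directions. Igf2, a fetal growth factor, had 32, 43 and 34 counts with knockout and 56, 92 and 151 with overexpression. Its level rose from 1.10 ± 0.281 to 2.88 ± 1.07 CPM (± SD over 3 libraries each), a log2 difference of 1.39 ± 0.40 (SE), at an adjusted p of 0.0281 by edgeR. This call was lost without knockout replicate 1 (adjusted p = 0.0731) or 3 (0.0658) and without overexpression replicate 2 (0.0692) or 3 (0.104), and epithelial scaling gave a log2 difference of 0.23 (adjusted p = 0.636, the highest of the alternatives). Exons of Igf2 are shared with Gm49394, to which 44, 0 and 0 counts were assigned with knockout and 11, 29 and 0 with overexpression, so that the split of reads between them is uncertain. Summed over both genes the counts were 76, 43 and 34 against 67, 121 and 151, where the groups overlap. H19 had 105, 151 and 183 counts for each Igf2 count with knockout and 0.750, 1.08 and 0.768 with overexpression.

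In the Kcnq1 domain, Cdkn1c stood among genes that rose or did not pass the test. Of the other 9 tested genes of the domain, 1 was lower, 4 were higher and 4 did not pass. Among all tested genes 18.0% were lower and 13.6% higher past the threshold. The gene of the domain that fell beside Cdkn1c was Cd81, a tetraspanin of the cell surface (1708, 2532 and 3077 counts against 669, 718 and 703, log2 fold change -1.80). Kcnq1, a potassium channel, had 157, 68 and 51 counts with knockout and 384, 457 and 302 with overexpression, a log2 fold change of 2.08 (edgeR, adjusted p = 0.00826), and 0.97 when scaled to the epithelial list. With knockout Kcnq1 averaged 2.75 CPM, or 1.82 CPM once replicate 1 was left out. Phlda2, which limits placental growth and like Cdkn1c is maternally expressed, had 310, 299 and 171 counts against 478, 952 and 795. Its log2 fold change was 1.5 (edgeR, adjusted p = 0.013), and 0.35 under the epithelial scaling (adjusted p = 0.314). Slc22a18 and Osbpl5 were higher by 1.04 and 0.44 on the log2 scale, with adjusted p-values of 0.0463 and 0.0447, and under the epithelial scaling these became -0.099 and -0.72. Leaving out 1 library ended the call of Slc22a18 in all 6 fits (adjusted p 0.0592 to 0.123) and that of Osbpl5 without knockout replicate 1 (0.1), 2 (0.108) or 3 (0.16) or overexpression replicate 3 (0.119). Upper-quartile normalization ended both calls (0.0548 and 0.0576), and testing without the count filter that of Osbpl5 (0.0738). Kcnq1ot1, the paternally expressed antisense RNA that silences the domain in cis, had 545, 664 and 1154 counts with knockout and 567, 457 and 667 with overexpression, which overlapped (log2 fold change -0.49, adjusted p = 0.165). With the epithelial scaling it was -1.70 (adjusted p = 0.00132). Exons of Kcnq1 and Kcnq1ot1 overlap on opposite strands, and the kit's strand setting is not given in the sources used here.

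Around Peg3, Zim1 fell and Usp29 was not tested. Zim1, a maternally expressed zinc finger gene, had 165, 219 and 210 counts against 6, 0 and 7 (log2 fold change -5.53, edgeR adjusted p = 0.000292), and Usp29 had 14, 9 and 0 against 10, 4 and 10. Around Mest, Copg2, a subunit of the coat of transport vesicles, had 1330, 1082 and 1275 counts against 1527, 1523 and 1904. The log2 fold change of Copg2 was 0.41 (edgeR, adjusted p = 0.0457), -0.75 under the epithelial scaling, and its call was lost in 5 of the 6 fits that left out 1 library, all but the one without overexpression replicate 2 (adjusted p 0.0616 to 0.164), and also with upper-quartile normalization (0.0628) or without the count filter (0.101). In the Prader-Willi domain, Peg12 (log2 fold change -4.61) and Snrpn (-3.51), which encodes a splicing protein, fell with Ndn. Snrpn had 28, 53 and 74 counts against 3, 7 and 3, and its overexpression mean of 0.135 CPM was 0.0837 CPM without replicate 2. It shares exons on the same strand with Snurf and, over 589 of its 2159 bp, with Gm38393. How reads were divided among the 3 is unknown. The ubiquitin ligase gene Ube3a, Atp10a and Mkrn3 did not pass the threshold, with log2 fold changes of 0.23, 0.30 and 0.32 that became -0.91, -0.87 and -0.86 under the epithelial scaling, and Magel2, the other MAGE gene of the domain, had 1 count in all. Ube3a passed without overexpression replicate 2 (adjusted p = 0.021). Next to Grb10, Cobl, which nucleates actin filaments, went the other way, with 653, 282 and 510 counts against 2035, 1657 and 2270 (log2 fold change 2.05, edgeR adjusted p = 0.000359, and 0.91 under the epithelial scaling), while Ddc fell by 1.67 on the log2 scale (adjusted p = 0.0164). The call of Ddc was lost without knockout replicate 2 (adjusted p = 0.0624) or overexpression replicate 1 (0.066), 2 (0.0551) or 3 (0.0635), and without the count filter (0.0603). Zim1, Peg12, Snrpn and Ddc had passed the count filter through the knockout libraries.

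**Figure D4:**
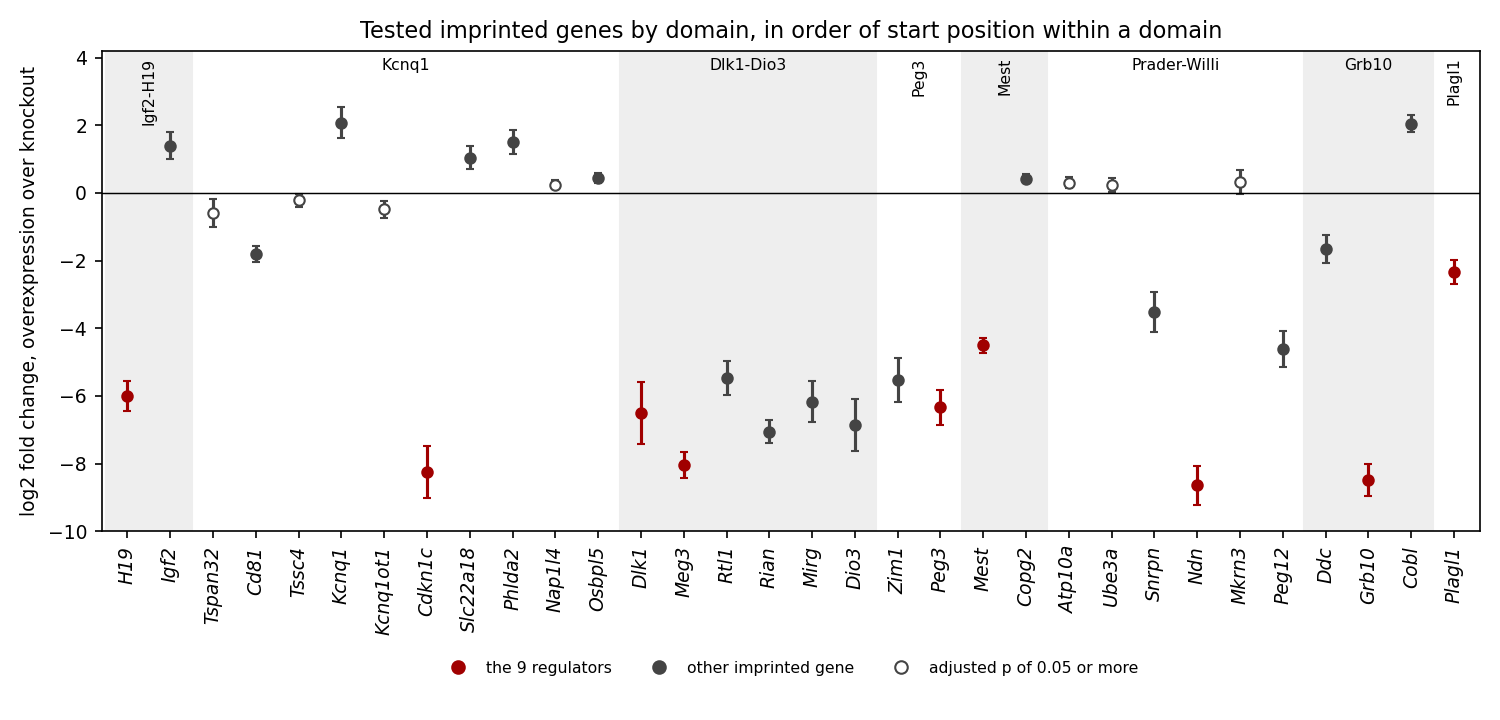
Log2 fold change (overexpression over knockout, points, with the standard error as bars) of the tested imprinted genes of the 8 domains that hold the 9 regulators, which are in red. All 6 genes of the Dlk1-Dio3 domain lie at -5.47 or lower, while Igf2, Kcnq1, Phlda2 and Cobl lie above 0 beside H19, Cdkn1c and Grb10; open points did not pass the threshold, and several small rises turn below 0 when libraries are scaled to epithelial genes.

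Outside these domains, Sgce and Peg10 were the paternally expressed genes with the smallest p-values. Both passed the count filter through the knockout libraries, so a test of them could hardly have gone the other way. Sgce, a sarcoglycan of mesenchymal cells, had 621, 917 and 1304 counts against 4, 3 and 10 (log2 fold change -7.38, edgeR adjusted p = 4.57e-06). Its neighbour Peg10, derived from a retrotransposon and needed in placenta, had 74, 85 and 230 counts against 1, 2 and 2 (edgeR adjusted p = 0.000139), and its 3 knockout libraries averaged 3.76 CPM, or 2.49 CPM with replicate 3 left out.

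Genes that lie beside the 9 regulators but were on no imprinted list were read for comparison. The 3 nearest tested genes on each side gave 45 different genes. Of these, 11 were lower past the threshold, 5 were higher and 29 did not pass, and their median log2 fold change was -0.058. Among all tested genes 18.0% were lower and 13.6% higher past the threshold. The set is not free of imprinted loci, since Gm49394 shares exons with Igf2 and some neighbours lie inside the Dlk1-Dio3, Kcnq1 or Prader-Willi domain. Those between listed genes of the Kcnq1 domain were R74862 (lower), Cars (higher), Trpm5, Tnfrsf26 and E230032D23Rik. On the flanks of Mest, Cep41 and Tmem209 had log2 fold changes of 0.34 and -0.039, and on those of Plagl1, Sf3b5 and Ltv1 had 0.81 and -0.23, none past the threshold. Some neighbours were among the genes that fell. Begain, upstream of Dlk1, went from a mean of 4.75 to 0.00843 CPM (edgeR adjusted p = 3.17e-05), and Dio3os, inside the Dlk1-Dio3 domain, from 1.57 CPM to no count, while Gm37899 and B830012L14Rik in the same domain did not pass. Zfp28 beside Peg3 had a log2 fold change of -6.71, and Tnnt3 beside H19, which is also a muscle marker, had -4.62. Ikzf1 beside Grb10, a transcription factor of white blood cells, went from 8.08 CPM to no count.

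Genes whose proteins maintain imprints were read in the same libraries. Of 17 listed, 16 were tested and 5 were lower with edgeR (31.2%, beside 18.0% of all tested genes). Among these 5, Tet1 and Dnmt3l had passed the count filter without reaching its level in every overexpression library. The count of higher genes was 0 with edgeR and 0 with DESeq2, beside 13.6% of all tested genes with edgeR. Ehmt2 alone had an unadjusted p under 0.05 upward with edgeR, 0.0426. The median log2 fold change of the 16 was -0.13. Zfp57, which binds the letters shown above, had 171, 148 and 114 counts with knockout and 24, 24 and 47 with overexpression, a log2 fold change of -2.24 (edgeR, adjusted p = 0.00154). Tet1, an enzyme that oxidises methylated cytosine, had 65, 78 and 98 counts against 9, 3 and 12 (log2 fold change -3.35, adjusted p = 0.000722). Dnmt3l, a cofactor of DNA methylation in germ cells whose exons overlap those of Aire, had 17, 29 and 18 against 0, 1 and 1. Arid4a had a log2 fold change of -0.76 (edgeR adjusted p = 0.0342), which was lost without knockout replicate 1 (0.0705), 2 (0.0885) or 3 (0.0881). Trim28, the partner of ZFP57, and the maintenance methylase Dnmt1 did not pass, at -0.15 and 0.15.

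Partners of the growth axis on which H19, Igf2 and Grb10 act differed among themselves. Igf1 had 4125, 3084 and 2952 counts with knockout and 18, 12 and 40 with overexpression (log2 fold change -7.23, edgeR adjusted p = 2.09e-06). The receptor gene Igf2r, itself maternally expressed, stood at -0.16 on the log2 scale (adjusted p = 0.459), and -1.34 under the epithelial scaling (adjusted p = 0.000603). In all, 1 of 6 tested genes of the IGF and insulin list was lower with edgeR (16.7%, beside 18.0% of all tested genes). The count of higher genes was 0 with edgeR and 1 with DESeq2, namely the receptor Igf1r (log2 fold change 0.41, unadjusted p = 0.0192 with edgeR, the 1 gene under 0.05 upward). Of 6 tested oncofetal genes, 1 was higher with edgeR (16.7%, beside 13.6% of all tested genes). With DESeq2 2 were higher (Lin28b, an RNA-binding protein of embryonic cells, and Igf2bp2). The count of lower genes was 0 with either tool, and 0 had an unadjusted p under 0.05 downward. Igf2bp2, which binds Igf2 messenger RNA, was the one that rose, from 110 ± 9.39 to 168 ± 14.3 CPM (± SD over 3 libraries each), a log2 fold change of 0.61 (edgeR, adjusted p = 0.0127). Its call was lost without knockout replicate 2 (adjusted p = 0.0664), and under the epithelial scaling its log2 fold change was -0.54.

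The genes whose log2 CPM followed each regulator most closely over the 6 libraries were found among 12142 candidates. For Meg3 it was Rian, with a Pearson correlation of 1 to 4 decimals, then Agpat4 (0.9998). For Grb10 it was Avpr1a (0.9999), for Ndn St6galnac6 (0.9997), for H19 Fkbp9 (0.9993), for Mest Pcyt1a (0.9995), for Plagl1 P2ry10b (0.9995), for Cdkn1c AW551984 (0.9995), for Peg3 Chst15 (0.999) and for Dlk1 Wwc2 (0.9976). Between 409 and 1309 candidates had a correlation over 0.95 with a given regulator. The correlations describe 6 libraries that share the contrast of the groups, and the likeness is of shape and not of size, since Mest had a log2 fold change of -4.51 and Pcyt1a one of -0.56.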

How the data were processed

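Bulk RNA-seq of 6 PDVC57 libraries was read from 1 deposited table of raw counts per Ensembl gene ID, whole numbers without normalization, with 1 column per library matched through the sample's description. Kallisto 0.44.0 and mm10 are named in the submitters' processing notes with no role stated. RNA was isolated with a column kit for small samples and libraries made with a low-input kit, per the labels' protocols. The annotation, the counting step and the strand setting are not given in the sources used here, so how reads of overlapping genes were divided is unknown.

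Of 55481 rows, 96 (spike-in and construct sequences, at most 2.23e-05% of a library) were left out. Symbols, positions and exon lengths came from GENCODE M21 (GRCm38) for 55144 of 55385 gene IDs. After filterByExpr (count 10, total 15) and TMM normalization, groups were compared in R 4.3.3 by quasi-likelihood F-tests (edgeR 4.0.16), group as the only term, with Benjamini-Hochberg adjustment over 18504 genes and a threshold of 0.05. Fold changes are overexpression over knockout. Standard errors are the fold change divided by the square root of F. CPM uses TMM-scaled library sizes, on which 3 counts, the limit that a count of 0 allows, are 0.0759 to 0.101 CPM. Intervals of summed counts are exact (Clopper-Pearson) at 95%, and do not cover PCR duplication, because reads carry no molecular identifiers. No batch is in the labels.

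The alternatives were RLE and upper-quartile normalization, scaling to the median ratio of 32 epithelial genes, no filter beyond 1 count, robust dispersion, the Wald test of DESeq2 1.42.0, the replicate number as a block and leaving out each library. The fit was tested on simulated counts. It called 106 of 113 genes given a 4-fold change and 49 of 87 given a 2-fold change. Of its 158 calls, 3 were false. A gene that did not pass may thus still differ 2-fold. The genes named are Sox2, the 9 regulators, the genes of their imprinted domains, Igf2 and Igf2r, up to 4 genes of smallest p in each related list, the genes beside the regulators and the genes most like them (average log2 CPM at least 1, prior count 2). The members and lists were chosen with earlier results of these data known. Some neighbours, Igf1r, Lin28b, Ehmt2, Trim28 and Dnmt1 were singled out after their values were seen. Leaving out each library for the values per collagen count and the marker sums was added after seeing the data.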

Additional observations from a re-analysis of the deposited data

Results flagged for a closer look

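The row of the count table for mCherry, a fluorescent reporter sequence that no comparison above used, had 8 counts in knockout replicate 3, above the 3 counts that a count of 0 allows, with 1 count in knockout replicate 2 and 0 in the other 4 libraries.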

How the results depend on the processing

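All 9 regulators were lower past the threshold under each of the 13 alternatives, and none was higher. The ranges of the log2 fold change were -3.51 to -2.05 for Plagl1, -5.63 to -4.37 for Mest, -7.20 to -5.66 for H19 and -9.23 to -7.81 for Meg3, and the highest adjusted p of any of the 9 was 0.00696 (Dlk1 and Plagl1). The count of other imprinted genes that were higher, 8, was 5 with upper-quartile normalization and 4 to 7 when 1 library was left out (4 without knockout replicate 1 or 3 or overexpression replicate 3, and 5 without knockout replicate 2), which rests on fewer samples. Over all tested genes the count of higher genes was 1446 to 2599 in those fits, lowest without knockout replicate 2 and 1610 without knockout replicate 3. Scaling to epithelial genes gave 36 lower and 2 higher other imprinted genes, and 14078 lower and 352 higher over all genes. Under it log2 fold changes turned below 0 for Mkrn3 (-0.86), Slc22a18 (-0.099), Nap1l4 (-0.92), Osbpl5 (-0.72), Copg2 (-0.75), Ube3a (-0.91), Atp10a (-0.87) and Igf2bp2 (-0.54), as the median of all genes moved to -1.17 by construction. With the replicate number as a block, 9 regulators were lower, 16 other imprinted genes lower and 6 higher, and 3177 genes lower and 2416 higher in all, with Osbpl5 (adjusted p = 0.0788) and Copg2 (0.0902) lost. The labels do not say whether same-numbered libraries share more than a number. Their deviations from the group means correlated at -0.04 to 0.051, and not every library correlated best with its own number. With 3 libraries in each group, these values cannot decide whether the libraries were paired. Depth limits Ndn, Dlk1 and Cdkn1c with overexpression, at 5, 6 and 13 counts over 3 libraries.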
